A study of Mus musculus with 6 samples.

Results

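The genes described here build, crosslink and cut the extracellular matrix of the liver or mark the stellate cells that make much of it. A list of 44 such genes was followed across 6 mouse hepatocellular carcinomas (HCC), and each gene was found on the arrays by the accession of its probes. Of these 44 genes, 43 were measured, and 39 of the 43 were well above background on all 6 arrays. They stand among 27412 features tested. The exception was Mmp9, the gelatinase of neutrophils and macrophages, whose probes were well above background on 0 arrays and on 1 array.

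The 6 tumours came from C57BL/6 mice and were labelled in 3 groups of 2. Albumin-derived tumours without CLC arose in Alb-AID mice at 90 weeks of age. Epcam-derived tumours, with or without CLC, arose in Epcam-AID mice that had received tamoxifen and a diet with 0.1% DDC for 8 months. DDC is a compound that injures the bile ducts and brings on a ductular reaction and periductal scarring. The labels expand neither CLC nor AID, and the cells in which each line's allele is active are given by the line names alone. In the series' own terms the Epcam-derived tumours arose from ductular progenitor cells. Cell of origin, diet, tamoxifen and age or length of treatment differ together between the Albumin-derived and Epcam-derived tumours and cannot be told apart. The arrays lay on 2 slides. Slide 1 held both Albumin-derived tumours and replicate 1 with CLC, and slide 2 held both Epcam-derived tumours without CLC and replicate 2 with CLC.

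In the liver, most fibrillar collagen is laid down by activated hepatic stellate cells and portal fibroblasts. Transforming growth factor beta and platelet-derived growth factor drive their activation, lysyl oxidases crosslink the collagen and elastin they secrete, and small leucine-rich proteoglycans space the fibrils. Matrix metalloproteinases (MMP) cut the finished matrix, and tissue inhibitors of metalloproteinases (TIMP) hold them back. In people, HCC usually grows in a scarred liver, and normal hepatocyte plates rest on little basement membrane.

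Values are log2 signals relative to the 75th percentile of each array, so 0 marks that percentile, and they compare tumours for 1 gene and not genes with each other. The 75th percentile itself ranged from 280 to 311 signal units on slide 1 and from 418 to 482 on slide 2. The share of probes well above background ranged from 52.0% to 56.5% on slide 1 and from 63.1% to 64.6% on slide 2. Both measures thus split by slide. The 2 pairs without CLC lay on a slide each, so signal strength and group cannot be told apart between them. Saturated spots numbered 0. All 10 hepatocyte markers were well above background on every array. In bulk tumour RNA, fewer cells of a type and less RNA per cell cannot be told apart. Nothing in the labels says which tumours came from separate mice, so p-values measure the spread between these tumours only, and 2 arrays per group limit the precision. An exact two-sided permutation test of 2 arrays against 2 cannot go below p = 0.333.

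Matrix genes differed more between the 2 tumours of a group than most features did. In the Albumin-derived tumours, 40 of the 43 genes were higher in replicate 2 than in replicate 1, by a median of 0.83 (log2), while 49.0% of all features were higher there. In the Epcam-derived tumours without CLC the direction was the other one, with 38 of 43 genes higher in replicate 1 and a median of -1.28 for replicate 2 minus replicate 1. Of all features, 52.6% were higher in that replicate 1. The tumours with CLC were more alike, with 23 of 43 genes higher in replicate 2 and a median of 0.08.

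The size of these gaps, without regard to sign, had a median of 0.87 for matrix genes against 0.34 for all features in the Albumin-derived pair. It was 1.31 against 0.38 in the Epcam-derived pair without CLC and 0.48 against 0.39 in the pair with CLC. A gap of at least 1 (log2), or a doubling, was found for 20, 26 and 9 of the 43 genes in these 3 pairs, beside 13.2%, 15.5% and 15.4% of features. The widest gaps were 3.21 for Mmp12, the macrophage elastase, in the Albumin-derived pair, and -3.10 for Thbs2, a matricellular thrombospondin, in the Epcam-derived pair without CLC.

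**Figure D1:**
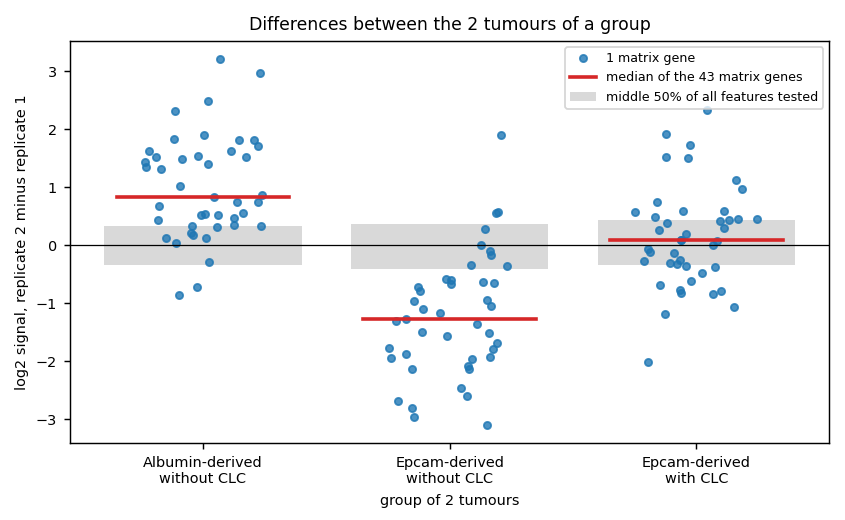
Each point is 1 of 43 matrix genes, the vertical axis gives its log2 signal in replicate 2 minus replicate 1 of a group, the red line is their median and the grey band holds the middle 50% of all features tested. The medians lie at 0.83, -1.28 and 0.08 for the Albumin-derived tumours, the Epcam-derived tumours without CLC and those with CLC.

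Single tumours held the extremes for most genes. Epcam-derived replicate 1 without CLC was the highest of the 6 for 24 of 43 matrix genes and for 21.5% of all features. Albumin-derived replicate 1 was the lowest for 29 of 43 and for 20.3% of features. With each gene set to its mean over the 6 arrays, the median matrix gene stood at -0.64 and 0.19 in the Albumin-derived tumours, at 0.66 and -0.55 in the Epcam-derived pair without CLC, and at 0.24 and 0.21 in the pair with it. The values overlap between all 3 groups except that both tumours with CLC lie above both Albumin-derived ones.

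**Figure D2:**
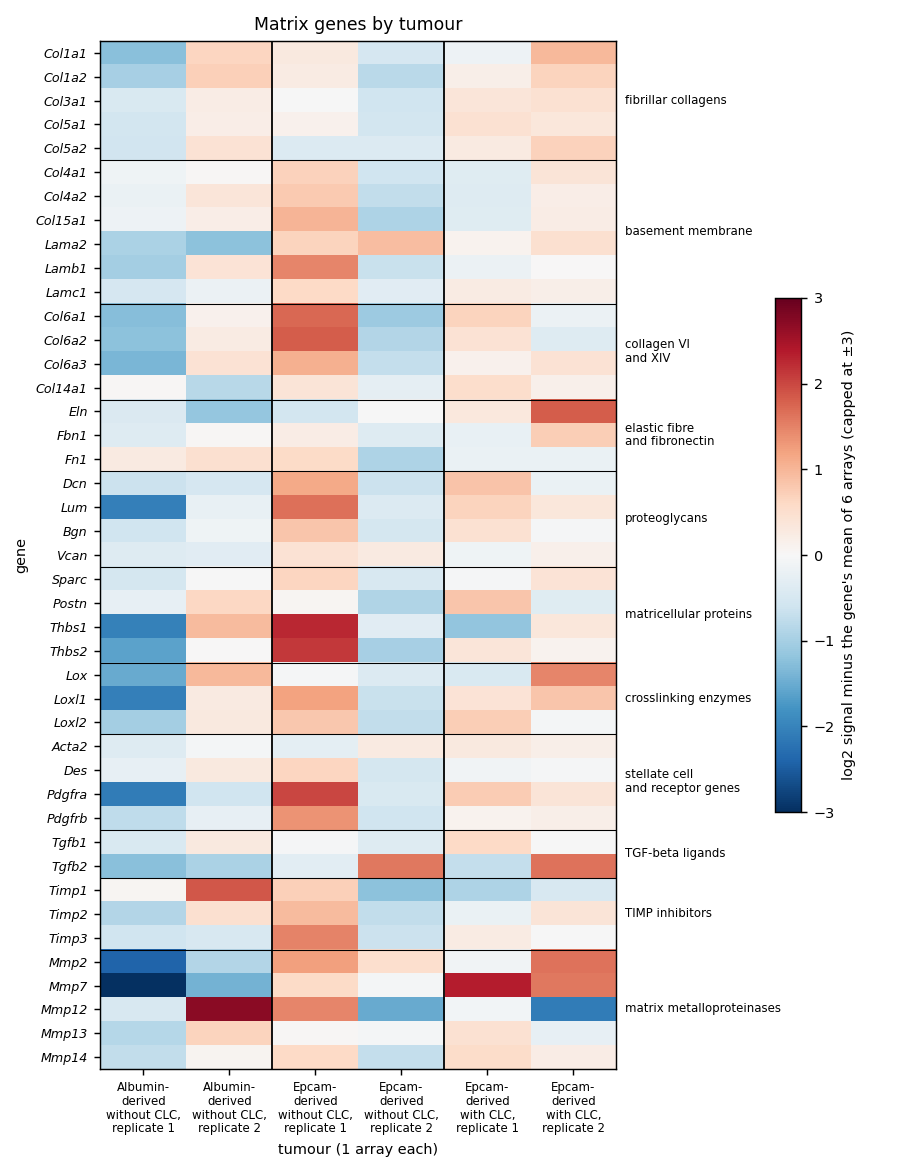
Rows are the 43 measured matrix genes by role, columns are the 6 tumours, and colour gives the log2 signal minus the gene's mean over the 6 arrays, capped at 3 on either side. The third column, Epcam-derived without CLC replicate 1, is the highest for 24 genes, and the first, Albumin-derived replicate 1, is the lowest for 29.

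The first comparison set the Epcam-derived tumours without CLC against the Albumin-derived ones, which also lack it. Labelled origin, diet, tamoxifen, age or length of treatment and slide all differ between these groups. The median matrix gene was 0.40 (log2) higher in the Epcam-derived tumours, beside 0.06 over all features, and 33 of 43 were above 0, as were 53.5% of features. In limma's fit, 0 of 43 passed a Benjamini-Hochberg adjusted p of 0.05, beside 0.241% of features. The smallest adjusted p was 0.0755, for Lama2, and 4 of 43 had an unadjusted p under 0.05, all higher, beside 20.0% of features in either direction. The 2 tumours of each group lay wholly apart for 6 genes, all higher in Epcam-derived tumours, beside 30.4% of features higher and 24.8% lower. These were Lama2, Vcan, Pdgfra, Tgfb2, Mmp2 and Mmp7. Without Epcam-derived replicate 1 the median was -0.20 with 13 genes above 0, and without Albumin-derived replicate 1 it was 0.01 with 22. These groups lie on a slide each, and with slide as a block, estimated through the tumours with CLC, the median was 0.50 with 26 genes above 0.

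The second comparison took the tumours with CLC against those without it in Epcam-AID mice on the same treatment. The median was 0.05 beside -0.06 for all features, and 22 of 43 genes were above 0, beside 43.3% of features. In limma's fit 0 genes and 0% of features passed, with 1 gene at an unadjusted p under 0.05 beside 3.46% of features. Both CLC tumours lay above both others for Col3a1, Col5a1, Col5a2, Eln, Tgfb1 and Mmp7, which is 6 of 43 beside 10.4% of features. Both lay below for Lama2 and Vcan, 2 of 43 beside 19.6%. The median was 0.75 with 38 genes above 0 without Epcam-derived replicate 1 of the group lacking CLC, and -0.48 with 14 without its replicate 2. Within slide 2 it was 0.09 with 24.

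The third comparison set the tumours with CLC against the Albumin-derived ones. The median was 0.58 beside -0.01 for all features, and 37 of 43 genes were above 0, beside 49.4% of features. Again 0 of 43 passed in limma's fit, beside 0.0620% of features, with a smallest adjusted p of 0.0922, for Mmp7. At an unadjusted p under 0.05 the counts were 4 genes, all higher, beside 16.0% of features in either direction. Both CLC tumours lay above both Albumin-derived tumours for 20 genes, beside 23.9% of features, and below for Fn1 and Timp1, beside 26.9%. Leaving out Albumin-derived replicate 1 gave a median of 0.19 with 26 genes above 0, and within slide 1 it was 0.59 with 33. Each pair of these 3 comparisons shares the arrays of 1 group, so their values are not independent.

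**Figure D3:**
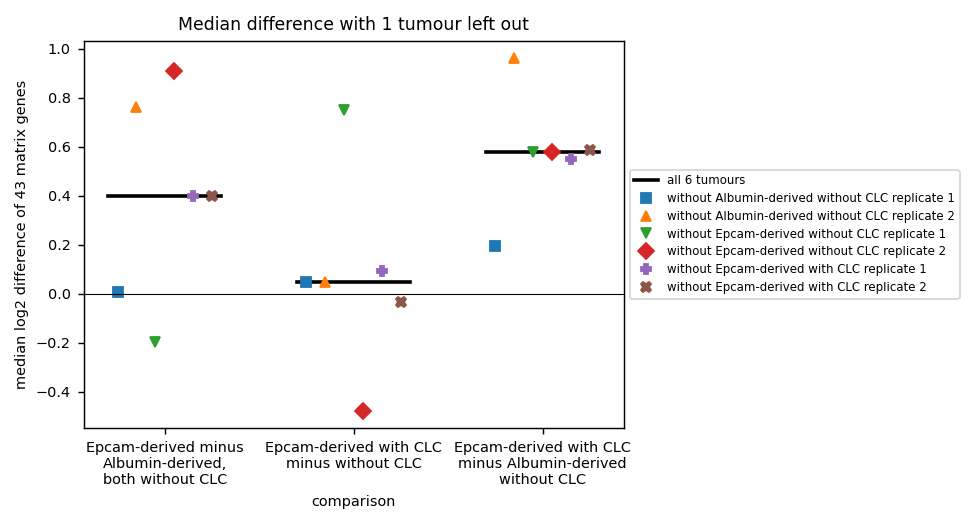
Points give the median log2 difference over the 43 matrix genes in each comparison with all 6 arrays and with 1 array left out. Leaving out Epcam-derived replicate 1 without CLC brings the first comparison to -0.20 and the second to 0.75, while the third stays between 0.19 and 0.96.

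The standard error (SE) of a difference had a median of 0.64 for matrix genes and 0.35 for all features, since the fit takes the spread from the same replicate pairs. Differences below are log2 with their SE, n = 2 per group, and adjusted p-values are those of limma over all features.

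**Figure D4:**
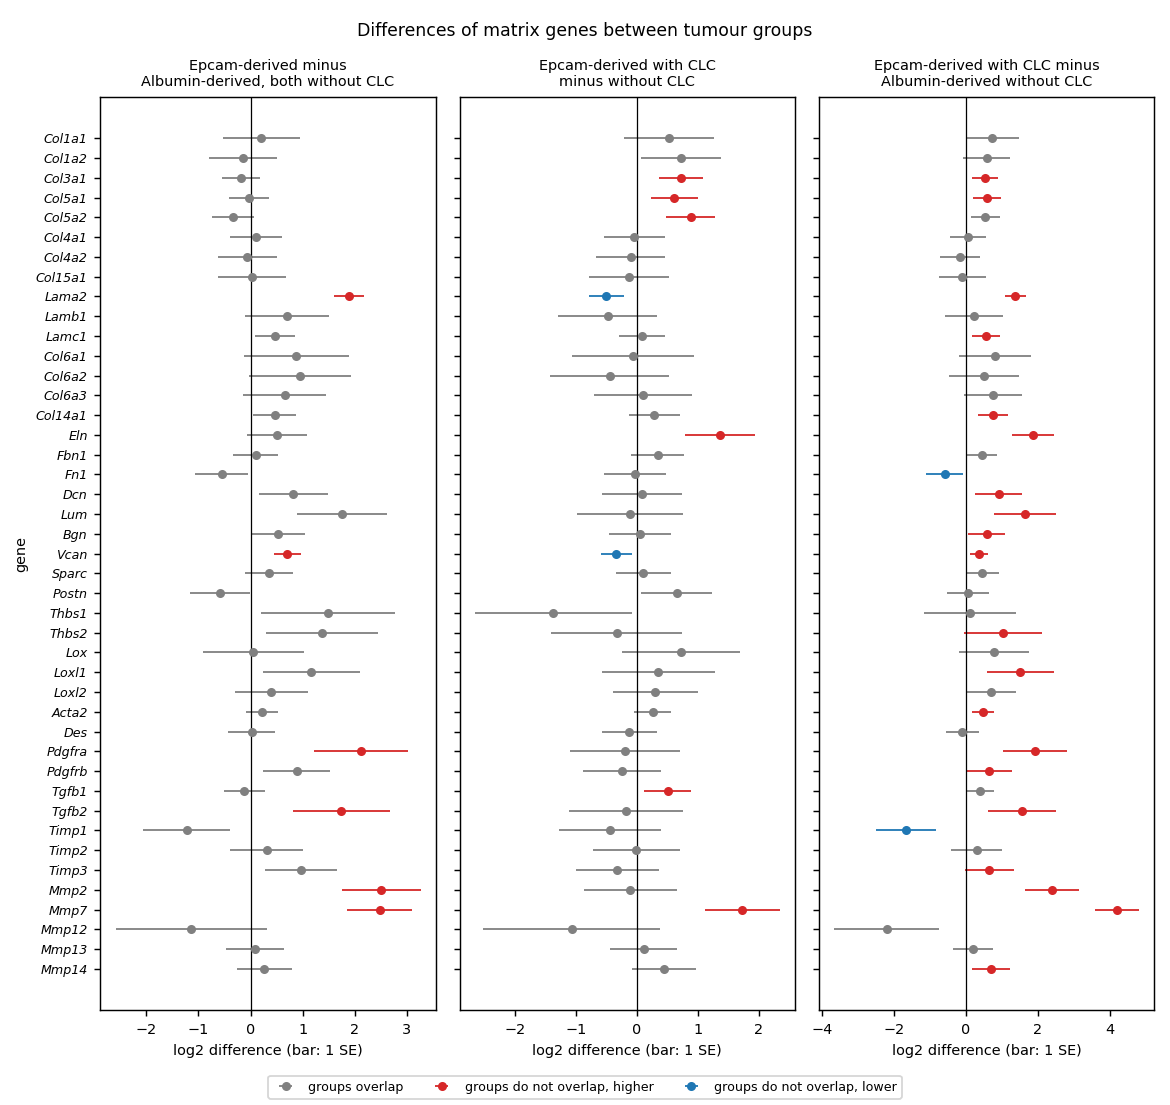
Each row is a matrix gene, each panel a comparison, and the points give the log2 difference with bars of 1 SE from limma's fit on an axis scaled for its panel, in red or blue where the groups do not overlap. The differences run from -1.22 to 2.50, from -1.37 to 1.73 and from -2.21 to 4.20 in the 3 panels, and Mmp7 is the highest in both panels with CLC.

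Fibrillar collagens, the ropes of scar tissue, were higher with CLC than without it for 5 of 5 genes, with differences from 0.52 to 0.88, and for 4 of 5 without replicate 2 with CLC. Col1a1, the alpha-1 chain of type I collagen, read 1.13 and 3.03 in the Albumin-derived tumours, 2.69 and 1.89 in the Epcam-derived pair without CLC, and 2.25 and 3.37 in the pair with CLC. Its lowest value was that of Albumin-derived replicate 1 and its highest that of replicate 2 with CLC, and all groups overlapped. The type III chain Col3a1, which forms thinner fibrils beside type I, read 2.24 and 2.92 in the Albumin-derived tumours, 2.69 and 2.10 in the Epcam-derived pair without CLC, and 3.06 and 3.16 in the pair with CLC. Both CLC tumours were above the other 4, with a difference of 0.72 ± 0.36 from Epcam-derived tumours without CLC (adjusted p = 0.999) and 0.53 ± 0.36 from the Albumin-derived ones (adjusted p = 0.522).

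Type V collagen nucleates type I fibrils. Its Col5a1 chain read -0.16 and 0.59 (Albumin-derived), 0.53 and -0.15 (Epcam-derived without CLC) and 0.87 and 0.74 (Epcam-derived with CLC), so that both CLC tumours again held the highest values. Its Col5a2 chain read -4.21 and -3.19 (Albumin-derived), -4.04 and -4.04 (Epcam-derived without CLC) and -3.36 and -2.95 (Epcam-derived with CLC). Here the CLC tumours were above both Epcam-derived tumours without CLC, by 0.88 ± 0.40, and one of the Albumin-derived tumours lay between them. The adjusted p of both type V chains in this contrast was 0.999. Without Epcam-derived replicate 2 of the group lacking CLC, the Col5a1 difference was 0.28 and the Col3a1 difference 0.42. Among tumours without CLC, 4 of 5 fibrillar collagens were lower in Epcam-derived than in Albumin-derived ones, from -0.34 to 0.21, but 4 of 5 were higher with the authors' own scaling and 5 of 5 without Albumin-derived replicate 2.

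Most basement membrane genes were highest in the same single tumour, with Lama2 as the exception. Col4a1, a chain of the type IV collagen network, read 2.54 and 2.70 (Albumin-derived), 3.36 and 2.08 (Epcam-derived without CLC) and 2.31 and 3.05 (Epcam-derived with CLC). Epcam-derived tumours without CLC held both the highest and the lowest value, and the 3 group means differed by at most 0.10. Col4a2, Col15a1, Lamb1 and Lamc1 were likewise highest in Epcam-derived replicate 1 without CLC.

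Lama2 encodes the laminin alpha-2 chain of muscle and mesenchymal basement membranes. It read -1.29 and -1.58 (Albumin-derived), 0.31 and 0.58 (Epcam-derived without CLC) and -0.25 and 0.13 (Epcam-derived with CLC). The groups formed 3 separate steps, with Albumin-derived tumours lowest and Epcam-derived tumours without CLC highest. The Epcam-derived tumours without CLC were 1.88 ± 0.29 above the Albumin-derived ones, or 3.68-fold (adjusted p = 0.0755), and those with CLC 1.38 ± 0.29 above (adjusted p = 0.133). The tumours with CLC lay -0.50 ± 0.29 from those without (adjusted p = 0.999). A second Lama2 probe, well above background on 4 arrays, differed by 0.07 in the first of these contrasts and by -0.37 between CLC and Albumin-derived tumours, so the 2 probes disagree on both steps from the Albumin-derived tumours. With the mean of both probes these differences were 0.98 and 0.50.

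Type VI collagen forms beaded filaments around cells, and type XIV collagen coats fibrils. All 4 of their genes had a positive difference from the Albumin-derived tumours in both Epcam-derived groups, between 0.46 and 0.96 without CLC and between 0.51 and 0.82 with it. Without Epcam-derived replicate 1 of the group lacking CLC only 1 of 4 was above 0 in the first of these contrasts, and without Albumin-derived replicate 1 only 2 of 4 were in the other. A second Col6a3 probe, well above background on all 6 arrays, gave -0.12 without CLC and 0.45 with it. With the mean of a gene's kept probes 4 of 4 were above 0 in both contrasts. Col6a1 read -0.07 and 1.33 (Albumin-derived), 2.92 and 0.10 (Epcam-derived without CLC) and 1.86 and 1.02 (Epcam-derived with CLC). Epcam-derived replicate 1 without CLC was the highest and its replicate 2 was near the lowest, Albumin-derived replicate 1. Of these 4 genes only Col14a1 separated the CLC tumours from the Albumin-derived ones, by 0.74 ± 0.42 (adjusted p = 0.447).

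Elastin and fibronectin had differences of opposite sign in the third comparison. Eln, the rubber-like core of elastic fibres, read -4.51 and -5.24 (Albumin-derived), -4.64 and -4.09 (Epcam-derived without CLC) and -3.76 and -2.26 (Epcam-derived with CLC). It was not well above background in either Albumin-derived tumour and in 1 of the tumours with CLC. The CLC tumours were 1.35 ± 0.57 above Epcam-derived tumours without CLC (adjusted p = 0.999) and at least 2.85-fold above the Albumin-derived ones (adjusted p = 0.227). Replicate 2 with CLC stands far above the other 5 tumours, and without it the first of these differences was 0.61. A second Eln probe gave -0.06 for that contrast, and the mean of both probes gave 0.65. For such a bound, the dim group's signal on each array was taken as its own value or the lowest signal well above background, whichever was higher. With normexp the difference from the Albumin-derived tumours was 0.33, below the bound, which holds for the processed signal alone.

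Fn1 encodes fibronectin, which hepatocytes secrete into plasma and mesenchymal cells lay into matrix. Its values were 7.21 and 7.42 (Albumin-derived), 7.51 and 6.01 (Epcam-derived without CLC) and 6.73 and 6.72 (Epcam-derived with CLC). Both CLC tumours were below both Albumin-derived tumours, with a difference of -0.59 ± 0.51 (adjusted p = 0.617), while Epcam-derived tumours without CLC held both the highest and the lowest value. Fbn1, the microfibril protein fibrillin-1, differed by 0.10, 0.34 and 0.44 in the 3 comparisons.

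All 4 proteoglycans (Dcn, Lum, Bgn and Vcan) were higher in both CLC tumours than in both Albumin-derived tumours, beside 23.9% of features, with differences from 0.37 to 1.64. Lum, the fibril-spacing proteoglycan lumican, read -0.92 and 0.91 (Albumin-derived), 2.79 and 0.71 (Epcam-derived without CLC) and 1.80 and 1.48 (Epcam-derived with CLC). Albumin-derived replicate 1 was far below the rest, and Albumin-derived replicate 2 overlapped the Epcam-derived tumours without CLC. Its difference between these groups was 1.75 ± 0.87 (adjusted p = 0.321), which was 0.84 without Albumin-derived replicate 1 and 0.71 without Epcam-derived replicate 1.

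Versican, the large hyaluronan-binding proteoglycan of Vcan, had close replicates by the probe used here. It read -1.94 and -1.90 (Albumin-derived), -1.12 and -1.29 (Epcam-derived without CLC) and -1.69 and -1.42 (Epcam-derived with CLC). The order was Albumin-derived, then with CLC, then Epcam-derived without CLC, with no overlap. Epcam-derived tumours without CLC were 0.71 ± 0.25 above Albumin-derived ones (adjusted p = 0.217), and the difference was 0.33 with the normexp background correction. A second Vcan probe, well above background on 2 arrays, gave 0.51 for that difference, with all groups overlapping. For tumours with CLC minus Epcam-derived tumours without it, this probe gave 0.54, where the probe used here gave -0.34. The remaining probe was well above background on 0 arrays.

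Matricellular proteins bind the matrix and tune how cells hold to it. Sparc, a collagen-binding member made by stellate and endothelial cells, read 6.47 and 7.0 (Albumin-derived), 7.64 and 6.53 (Epcam-derived without CLC) and 6.97 and 7.42 (Epcam-derived with CLC). Values of all 3 groups overlapped, and its differences were 0.35, 0.10 and 0.46. The thrombospondins Thbs1 and Thbs2 had a far wider spread, with the peak of both in Epcam-derived replicate 1 without CLC, at 1.13 and -0.64, and the lowest value in Albumin-derived replicate 1, at -3.15 and -4.38. Between the tumours with CLC and the Albumin-derived ones Thbs1 differed by 0.12 ± 1.28, or -0.05 with normexp, and Thbs2 by 1.03 ± 1.07. Periostin (Postn), a product of activated fibroblasts, differed by -0.59, 0.65 and 0.06.

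The lysyl oxidases Lox, Loxl1 and Loxl2 crosslink collagen and elastin. All 3 had positive differences in each comparison, from 0.05 to 1.16, from 0.30 to 0.72 and from 0.70 to 1.51. Lox in the first was -0.33 with normexp, -0.02 with quantile normalization and -1.86 with slide as a block. Of the 3, 1 was above 0 in the first comparison without either Albumin-derived replicate 1 or Epcam-derived replicate 1, and 1 in the second without replicate 2 of the Epcam-derived group lacking CLC. The only one of the 3 whose groups did not overlap was Loxl1, which was 1.51 ± 0.93 higher with CLC than in Albumin-derived tumours (adjusted p = 0.483). All 3 were lowest in Albumin-derived replicate 1.

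Stellate cell genes were led by the receptor Pdgfra. Pdgfra, the platelet-derived growth factor receptor of fibroblasts and other mesenchymal cells, read -3.59 and -2.07 (Albumin-derived), 0.53 and -1.94 (Epcam-derived without CLC) and -0.73 and -1.08 (Epcam-derived with CLC). Both Albumin-derived tumours were below the other 4, of which Epcam-derived replicate 1 without CLC was the highest by a wide margin. The difference was 2.12 ± 0.90 without CLC, or 4.36-fold (adjusted p = 0.268), and 1.92 ± 0.90 with it (adjusted p = 0.372). Without Epcam-derived replicate 1 the first was 0.89, and with normexp they were 1.26 and 1.09.

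Pdgfrb, the receptor through which stellate cells proliferate, read -0.33 and 0.18 (Albumin-derived), 1.78 and -0.16 (Epcam-derived without CLC) and 0.53 and 0.61 (Epcam-derived with CLC). The tumours with CLC were close together and above both Albumin-derived ones, by 0.64 ± 0.64 (adjusted p = 0.672). Acta2, the smooth muscle actin of activated stellate cells and myofibroblasts, varied little by the probe used here. That probe read 2.42 and 2.75 (Albumin-derived), 2.51 and 3.08 (Epcam-derived without CLC) and 3.11 and 3.0 (Epcam-derived with CLC). Its difference between CLC and Albumin-derived tumours was 0.47 ± 0.31 (adjusted p = 0.51) with no overlap. Another Acta2 probe, well above background on all 6 arrays, gave 0.15 for that difference and ranged from 0.99 to 2.37 over the tumours. It read 2.26 and 1.35 (Albumin-derived) and 1.54 and 2.37 (Epcam-derived with CLC), so those groups overlapped. The remaining probe, well above background on 3 arrays, gave 0.29, also with overlap. Both other probes of Acta2 were negative, at -0.50 and -0.54, in Epcam-derived minus Albumin-derived tumours without CLC, where the probe used here gave 0.21. Des, the intermediate filament desmin, read -3.99 and -3.45 (Albumin-derived), -3.11 and -4.28 (Epcam-derived without CLC) and -3.86 and -3.78 (Epcam-derived with CLC). It overlapped in all groups and was not well above background in 1 tumour with CLC.

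The growth factor Tgfb1, the main fibrogenic ligand, read -1.49 and -0.74 (Albumin-derived), -1.07 and -1.40 (Epcam-derived without CLC) and -0.42 and -1.04 (Epcam-derived with CLC). Both CLC tumours were above both Epcam-derived tumours without CLC, by 0.50 ± 0.39 (adjusted p = 0.999), and one of the Albumin-derived tumours lay between them. Its relative Tgfb2 was higher in both Epcam-derived groups than in Albumin-derived tumours, by 1.74 ± 0.93 (adjusted p = 0.353) and 1.56 ± 0.93 (adjusted p = 0.474). Replicate 2 of the Epcam-derived groups held the high values, 1.13 and 1.17, and replicate 1 lay at -0.77 and -1.17, near the Albumin-derived tumours at -1.71 and -1.40. With slide as a block the first difference was -0.59, so its direction rests on how slide is treated.

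The TIMP inhibitors had differences of both signs. Timp1, which blocks most secreted metalloproteinases and marks active fibrosis, read 1.53 and 3.34 (Albumin-derived), 2.17 and 0.25 (Epcam-derived without CLC) and 0.54 and 0.99 (Epcam-derived with CLC). Both CLC tumours were below both Albumin-derived tumours, with a difference of -1.67 ± 0.83, which is 3.18-fold lower (adjusted p = 0.399). Albumin-derived replicate 2 was the highest tumour, and without it the difference was -0.77. Timp3, the inhibitor bound to matrix, was 0.65 ± 0.69 higher in that contrast without overlap (adjusted p = 0.687), and Timp2 differed by 0.30 ± 0.71. A second Timp2 probe, well above background on all 6 arrays, gave -0.37 there, so no direction holds for Timp2.

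Metalloproteinase genes held the largest differences. Mmp7 encodes matrilysin, a small protease made by epithelial cells, bile ducts among them. It read -5.61 and -3.99 (Albumin-derived), -2.01 and -2.64 (Epcam-derived without CLC) and -0.21 and -0.99 (Epcam-derived with CLC). The groups formed 3 steps with no overlap, and it was not well above background in 1 Albumin-derived tumour, whose measured value enters the folds. Epcam-derived tumours were above Albumin-derived ones by 2.47 ± 0.62 without CLC, or 5.55-fold (adjusted p = 0.137), and by 4.20 ± 0.62 with it, or 18.4-fold (adjusted p = 0.0922).

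The tumours with CLC were 1.73 ± 0.62 above those without, or 3.31-fold, with an adjusted p of 0.999 in limma's fit. With the normexp background correction the first difference of Mmp7 was 0.54 and that between CLC and Albumin-derived tumours 1.75.

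Mmp2, the gelatinase that stellate cells and fibroblasts make, read -4.50 and -2.97 (Albumin-derived), -0.87 and -1.60 (Epcam-derived without CLC) and -2.20 and -0.48 (Epcam-derived with CLC). All 4 Epcam-derived tumours were above both Albumin-derived ones, by 2.50 ± 0.76 without CLC, or 5.67-fold (adjusted p = 0.178), and by 2.40 ± 0.76 with it, or 5.26-fold (adjusted p = 0.236). With slide as a block the first was 0.78, a value that rests on the tumours with CLC, and within slide 1 the second was 1.54. With normexp both were 1.03. Mmp14, the membrane-bound protease that activates the Mmp2 protein, read -1.61 and -0.78 (Albumin-derived), -0.28 and -1.58 (Epcam-derived without CLC) and -0.33 and -0.64 (Epcam-derived with CLC). Both CLC tumours were above both Albumin-derived ones, by 0.71 ± 0.53 (adjusted p = 0.562).

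Mmp12 varied widely within every group. It read -0.40 and 2.81 (Albumin-derived), 1.55 and -1.41 (Epcam-derived without CLC) and 0.01 and -2.01 (Epcam-derived with CLC). Each group spanned at least 2.02 and all overlapped, so its difference of -2.21 ± 1.45 between CLC and Albumin-derived tumours (adjusted p = 0.515) lay within the spread of the replicates. The interstitial collagenase Mmp13 differed by 0.08, 0.11 and 0.20. For Mmp9, the probe that was well above background on 1 array read -1.08 in replicate 1 with CLC and from -7.60 to -6.58 in the other 5 tumours, and its other probe was not well above background on any.

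Mmp7, Mmp12 and Mmp13 lie near each other on mouse chromosome 9, and their upstream sequences hold the same motif. Mmp7 was highest in replicate 1 with CLC, while Mmp12 and Mmp13 were highest in Albumin-derived replicate 2. All were higher in replicate 2 of the Albumin-derived pair and in replicate 1 of both Epcam-derived pairs. The windows below are the 250 bases before each start, from RefSeq on GRCm38.p6, all on the plus strand. They lie at chr9:7691840-7692089 (Mmp7), chr9:7347124-7347373 (Mmp12) and chr9:7272264-7272513 (Mmp13). Capitals mark matches to TGANTCA, the letters bound by AP-1, and to TATAAA, the TATA box, on the strand shown or its opposite.
Mmp7: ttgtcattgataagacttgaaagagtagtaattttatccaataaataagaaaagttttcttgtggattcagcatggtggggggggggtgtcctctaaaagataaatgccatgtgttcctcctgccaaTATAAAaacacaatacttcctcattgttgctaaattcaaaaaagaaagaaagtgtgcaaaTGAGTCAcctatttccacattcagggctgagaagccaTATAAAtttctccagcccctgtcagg
Mmp12: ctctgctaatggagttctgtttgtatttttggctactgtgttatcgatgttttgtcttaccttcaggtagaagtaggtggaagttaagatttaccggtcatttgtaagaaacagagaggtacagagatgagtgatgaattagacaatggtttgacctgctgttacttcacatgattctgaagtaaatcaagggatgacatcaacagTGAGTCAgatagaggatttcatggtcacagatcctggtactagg
Mmp13: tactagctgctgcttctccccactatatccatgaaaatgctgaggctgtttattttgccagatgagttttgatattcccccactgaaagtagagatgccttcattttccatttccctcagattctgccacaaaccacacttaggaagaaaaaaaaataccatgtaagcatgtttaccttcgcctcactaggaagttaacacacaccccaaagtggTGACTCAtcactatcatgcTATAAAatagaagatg
The TGANTCA match ends 57 bases before the start of Mmp7, 38 before that of Mmp12 and 29 before that of Mmp13. A window was found for 29 of the 44 genes, 33 windows in all. TGANTCA stood in 4 of them, or 12.1%, beside 6.75% of 32851 windows of all genes, and the fourth was that of Col6a1. TATAAA stood in 18.2% beside 12.4%, and GGGCGG, the GC box, in 45.5% beside 32.7%. Both strands were searched, and these shares describe letters and not binding.

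Other genes of the same pathways went through the same fit, as a list of 194 that excludes the 44, with 159 measured. In limma's fit 0 of 159 passed in each of the 3 comparisons, and 31, 8 and 38 had an unadjusted p under 0.05, beside 20.0%, 3.46% and 16.0% of all features. Their median differences were 0.45, 0.00 and 0.52, with 119, 79 and 117 of 159 above 0. The medians of the 44-gene list were 0.40, 0.05 and 0.58.

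Among 36 further proteoglycan, matricellular and elastic fibre genes, 31 were higher in Epcam-derived than in Albumin-derived tumours without CLC, with a median of 0.87, and 34 were higher with CLC than in Albumin-derived tumours, with a median of 1.08. Mfap2, a microfibril protein, differed by 1.47 ± 0.33 (adjusted p = 0.12) in the first of these contrasts. Ccn5, a matricellular protein of smooth muscle, differed by 5.35 ± 1.32 (adjusted p = 0.167) between CLC and Albumin-derived tumours, from measured values, and was not well above background in 1 Albumin-derived tumour. In the same contrast the proteoglycan Prelp differed by 2.43 ± 0.72 (adjusted p = 0.218).

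Of 21 other collagens, 12, 12 and 11 were above 0 in the 3 comparisons. Col6a5, a type VI chain not well above background in either Albumin-derived tumour, was at least 6.32-fold higher without CLC (adjusted p = 0.11) and at least 11.6-fold higher with it (adjusted p = 0.113). Col27a1 differed by -2.34 ± 0.47 (adjusted p = 0.102) and Col11a2 by -1.55 ± 0.25 (adjusted p = 0.0809) in the first comparison. Both are fibrillar collagens, and both were lower in the Epcam-derived tumours.

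The collagen maturation list held 23 measured genes, of which 17 were higher in the first comparison and 16 in the third. Ppib, the peptidyl-prolyl isomerase that acts on procollagen in the endoplasmic reticulum, was lower in Epcam-derived than in Albumin-derived tumours, by -1.86 ± 0.25 without CLC (adjusted p = 0.0629) and -2.00 ± 0.25 with it (adjusted p = 0.0746). Pcolce, an enhancer of procollagen cleavage, differed by 2.03 ± 0.60 (adjusted p = 0.175) in the first.

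Basement membrane genes outside the list gave 10 of 12 above 0 in the comparisons with Albumin-derived tumours. Lama5, a laminin alpha chain of epithelial and vascular basement membranes, was 1.60 ± 0.52 higher in Epcam-derived than in Albumin-derived tumours lacking CLC (adjusted p = 0.191) and 1.12 ± 0.52 higher with CLC than in Albumin-derived ones (adjusted p = 0.365), with no overlap in either contrast.

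Of 22 other genes of TGF-beta and PDGF signalling, 18, 10 and 15 were above 0. Inhba, the activin beta-A subunit, was 2.10 ± 0.54 higher with CLC than without (adjusted p = 0.999) and -1.80 ± 0.54 in Epcam-derived minus Albumin-derived tumours without CLC (adjusted p = 0.177). Tgfb3, the third ligand of the family, was 1.07 ± 0.27 higher with CLC than in Albumin-derived tumours (adjusted p = 0.177).

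Integrins and collagen receptors were above 0 in 12, 9 and 13 of 19 genes, and other proteases and inhibitors in 19, 8 and 18 of 26. Itgb6, an epithelial integrin subunit that activates latent TGF-beta, was well above background only with CLC, and stood there at least 2.3-fold above Epcam-derived tumours without CLC (adjusted p = 0.999) and at least 1.29-fold above Albumin-derived ones (adjusted p = 0.243). The metalloproteinase Mmp19 was 1.27 ± 0.42 higher with CLC than in Albumin-derived tumours (adjusted p = 0.247).

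Markers of the cell types that make or meet the matrix were read beside these genes, each set to its mean over the 6 arrays. The median of 11 stellate cell markers was -0.35 and -0.72 (Albumin-derived), 0.71 and -0.51 (Epcam-derived without CLC) and 0.69 and -0.16 (with CLC). It was highest in the tumour where most matrix genes peaked, while Albumin-derived replicate 2, where matrix genes exceeded replicate 1, had the lowest. This was not particular to the stellate list. The median of 12 endothelial markers was highest and lowest in the same tumours, at 0.45 and -0.75. The summed signal of the stellate markers, in multiples of each array's 75th percentile, was 135 to 177, 57.7 to 125 and 67.8 to 68.9 in the 3 groups.

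The median of 9 portal fibroblast and myofibroblast markers was -0.52, 0.17, 0.40, -0.34, -0.23 and 0.63 in the same order. Within each of the Albumin-derived and Epcam-derived pairs without CLC it was higher in the tumour with the higher matrix genes. The medians of 11 bile duct and 4 mesothelial markers were also higher there. In the pair with CLC the fibroblast median was -0.23 and 0.63, while the median matrix gene stood at 0.24 and 0.21. Their summed signal was 12.7 to 20.8, 18.0 to 33.2 and 15.8 to 25.7. No group had Gfap of the stellate list or Gli1 of the fibroblast list well above background in both tumours. The part of either cell type in the matrix values was not tested.

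Macrophage markers were lowest in the Albumin-derived pair. The median of 11 was -0.90 and -0.91, then -0.18 and 0.38, then 0.56 and 0.46, with sums of 39.0 to 77.3, 85.5 to 96.9 and 95.1 to 119. The sums of the Epcam-derived groups with and without CLC overlapped. Of the 11 markers, 10, 7 and 8 were higher in the 3 comparisons. Hepatocyte markers ran the other way, with medians of 0.48 and 0.27, then -0.04 and -0.32, then 0.04 and -0.45. Their sums were 3894 to 4511, 2456 to 2951 and 2302 to 3229. They also split by slide, with medians of 0.48, 0.27 and 0.04 on slide 1 and -0.04, -0.32 and -0.45 on slide 2. The tumours with CLC fell with their slides, with sums of 3229 on slide 1 and 2302 on slide 2. The part of slide in these values was not tested. The 11 bile duct markers had medians of -0.51 and 0.37, then -0.38 and -0.63, then 0.85 and 0.44. They were thus highest with CLC, as Mmp7 was. The likeness to Mmp7 stopped there. In the Epcam-derived pair lacking CLC, set against the Albumin-derived pair, 5 markers were higher and 6 lower. Their median difference was -0.43, while Mmp7 was 2.47 higher. The part of these cell types in the differences between groups was not tested.

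**Figure D5:**
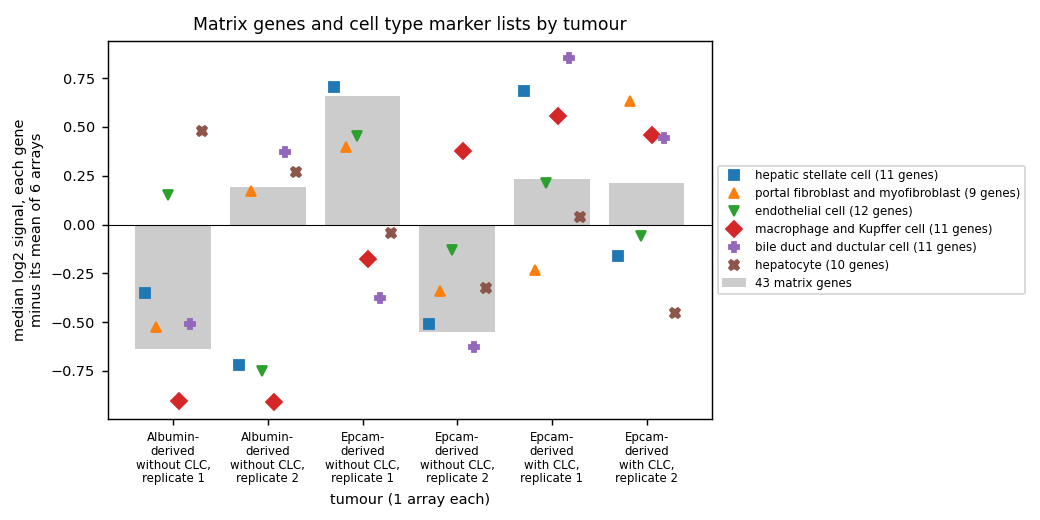
Grey bars give the median of the 43 matrix genes in each tumour and symbols the median of 6 cell type marker lists, on a log2 scale with each gene set to its mean over the 6 arrays. The matrix genes and the stellate markers both peak in Epcam-derived replicate 1 without CLC, at 0.66 and 0.71, and part in Albumin-derived replicate 2, at 0.19 and -0.72. The endothelial markers stand at 0.45 and -0.75 in these tumours.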

How the data were processed

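Total RNA from 6 frozen tumours, 0.1 µg each, was labelled with Cy3 and read on 1-colour Agilent arrays, per the labels' protocols. Per the file headers, Agilent Feature Extraction 11.5.1.1 gave the intensity of each spot, and the deposited processed signal is that intensity after background subtraction. Control and outlier spots were left out, log2 was taken, each array's 75th percentile was subtracted and spots of a probe were averaged. The 34777 probes kept were well above background on both arrays of 1 group or more. Accessions were named through RefSeq on GRCm38.p6, names only, since the array is annotated on mm9, and the brightest probe stood for each of 27412 features. A coefficient per group was fitted with limma 3.58.1 (lmFit, eBayes) in R 4.3.3, with two-sided p-values adjusted by Benjamini-Hochberg over all features and a threshold of 0.05. The deposited authors' table held the same signal times 1 factor per array. The files held no mean signal, so normexp (offset 50) used the median signal. The fit was tested on simulated data.

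The 44 genes and all lists were chosen with earlier results of these data known. All 44 may be named. Values on every array are given for genes past the threshold, for the 6 smallest p-values of each comparison and for 12 defining genes. Of the other lists, genes past the threshold or among the 3 smallest p-values were open to naming.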

Additional observations from a re-analysis of the deposited data

How the results depend on the processing

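In each of the 3 comparisons, 0 matrix genes passed the threshold under every alternative that was run. The count of all features passing moved more. For Epcam-derived against Albumin-derived tumours lacking CLC it was 66 (15 higher), and became 134 with normexp, 129 with the authors' table (63 higher), 110 with the mean of a gene's probes, 32 with probes above background on all arrays, 1 without a filter, 16 in a fit of these 4 arrays and 0 with slide as a block. Between tumours with CLC and Albumin-derived tumours it was 17, and became 65 with normexp, 66 with quantile normalization, 1 without a filter and 0 with slide as a block, within 1 slide or with these 4 arrays alone. Leaving out 1 array gave 0 to 16 and 0 to 0. Deviations of same-numbered tumours correlated over all features at -0.16, 0.23 and 0.06. These values cannot show whether tumours were paired, and the main fit took them as unpaired. A fit with the replicate block called 11 and 0 features, and 0 matrix genes.

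The median matrix gene without 1 array ran from -0.20 to 0.91 (Epcam-derived minus Albumin-derived) and from -0.48 to 0.75 (with minus without CLC), with 13 to 40 and 14 to 38 genes above 0. The 6 genes with the smallest p in each comparison kept their direction under the alternatives run. These genes were picked by p from the same data, and all but Lum in the first comparison had groups that did not overlap. Leaving out 1 array cannot reverse such a gene, so that part was no check on them. Eln and Mmp7 were absent where probes had to be above background on all arrays. Tgfb2, Lox and other genes with wide gaps or small differences did not keep their direction. In the 2 comparisons with Albumin-derived tumours the median of all features shifted by 0.31 and 0.32 with the authors' scaling, by -0.22 and -0.11 with normexp and by -0.24 and -0.13 without a filter. Counts by role under these alternatives were added after the data were seen. Probes near background, such as those of Eln and Mmp7, limit the differences measured there.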
